A study of Mus musculus with 182 samples.

Results

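Germinal centre B cells that carried Cxcr4 RNA without Cd83 RNA were compared with cells that carried Cd83 RNA without Cxcr4 RNA, across all other measured genes. The cells were chosen by their own measured values in a deposited table of single-cell RNA sequencing. A Cxcr4 only cell had a Cxcr4 value of at least 1 and a Cd83 value under 1, and a Cd83 only cell had the reverse. Of 182 cells, 105 met one of these rules, 52 as Cxcr4 only and 53 as Cd83 only cells. A further 35 cells carried both RNAs and 42 carried neither, and these were left out of the comparison. Carrying an RNA means here a value of at least 1, so a cell said to lack it may hold a lower signal.

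All cells came from the spleens of C57BL/6 mice taken on day 13 after intraperitoneal immunisation with 100 μg NP(23)-KLH, the hapten NP on a protein carrier, in 50% alum with 1 μg LPS. Cells bearing CD3, CD4, CD8, CD11c or IgD were depleted, and germinal centre B cells were sorted as B220+, Fas high and GL7 high. The sample labels also call the sorted cells NP-binding, while the series design names NP only among the stains. Capture used the Fluidigm C1, a microfluidic chip on which the cells were scored by eye, with SMARTer cDNA synthesis and Nextera XT libraries. Both sides of the comparison therefore share strain, antigen, day, sort and chemistry, and they were told apart by the measured levels of the 2 selecting genes. The labels name no animal, so the cells count as 1 biological sample and no test between the sides was possible. Differences are given as descriptions, and intervals are exact Clopper-Pearson 95% intervals that cover counting error over cells only.

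The germinal centre is divided into a dark zone, where B cells proliferate and mutate their antibody genes, and a light zone, where they take up antigen from follicular dendritic cells and compete for help from T cells. CXCR4, the receptor for the chemokine CXCL12, is needed for positioning in the dark zone. CD83, a surface protein that stabilises MHC class II and CD86, is widely used with CXCR4 to sort the zones by flow cytometry. The cells of both sides were B cells by their defining genes. Cd79b, a chain of the B cell receptor complex, was detected in 52 of 52 Cxcr4 only and 52 of 53 Cd83 only cells, and Ms4a1, which encodes CD20, gave the same counts. Detection of a gene means a value of 1 or more.

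The levels of the selecting genes describe the split and are not a result. In the Cxcr4 only cells the Cxcr4 value had a lowest of 1.14, a median of 8.01 and a highest of 394. In the Cd83 only cells the Cd83 value had a lowest of 1.01, a median of 23.7 and a highest of 1647. Cxcr4 lies at chr1:128588199-128592299 and Cd83 at chr13:43785112-43803133 in GRCm38.p6. Many cells lay near the limit of 1. Over all cells the Cxcr4 values closest to it were 1.08 inside and 0.975 outside, with 14 cells between 1 and 2 and 12 between 0.5 and 1. For Cd83 they were 1.01 and 0.993, with 11 and 17 cells in those ranges.

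The table fell into 2 sets of columns that had been scaled apart, set 1 with cells 1 to 96 and set 2 with cells 97 to 182. Any pair of cells of the same set had exactly equal values at 61.9% of genes or more, while pairs from different sets shared none of their non-zero values. What the sets stand for is unknown. Set 1 held 30 Cxcr4 only and 33 Cd83 only cells, and set 2 held 22 and 20. Read depth is unknown. The number of genes above their lowest value in the set, a stand-in for depth, had a median of 2758 in Cxcr4 only and 2570 in Cd83 only cells of set 1, and 2312 and 2146 in set 2. It was thus somewhat higher on the Cxcr4 only side in both sets, and its part in the differences below was examined only by repeating the comparison within strata of this number. The highest summed value of all cells belonged to a Cd83 only cell of set 2 in which 1 gene held 88.8% of the sum.

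**Figure D1:**
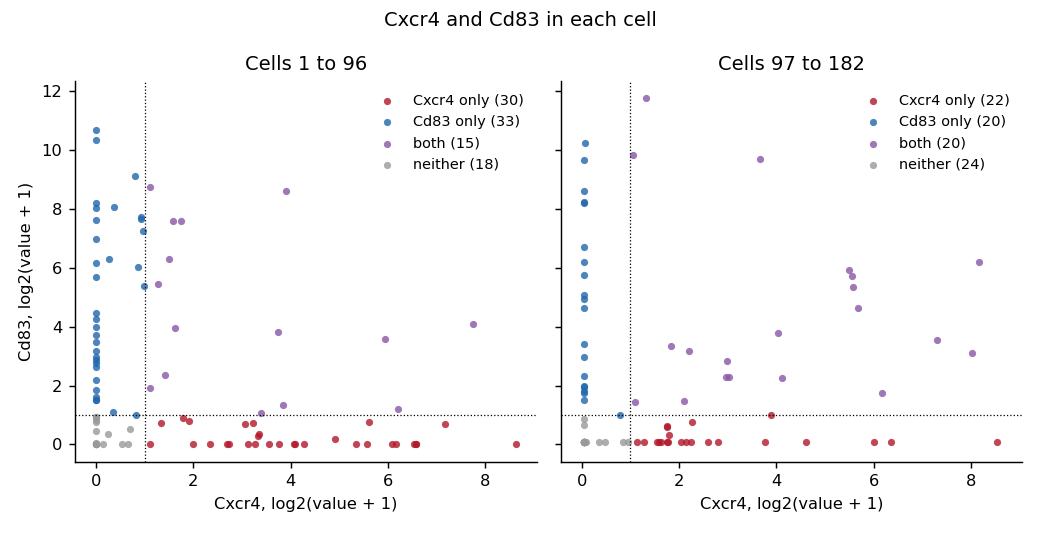
Cxcr4 against Cd83 in each of the 182 cells, both as log2(value + 1), 1 point per cell, with 1 panel for set 1 and 1 for set 2 and dotted lines at the limit of 1 in value. Over both panels the 52 Cxcr4 only and 53 Cd83 only cells lie in opposite corners, 35 cells carry both RNAs, 42 carry neither, and some cells lie close to a line on either side.

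Cells with both RNAs at a value of at least 1 were not rare. Values above the lowest of the set but under 1, counted here as not detected, were found in 22 cells for Cxcr4 and 25 for Cd83. Independent detection of the 2 genes would give 42.1 cells with both over the whole table, against the 35 counted. Within the sets it would give 22.5 in set 1, where 15 were counted, and 19.5 in set 2, where 20 were counted. Fewer double positive cells than independence gives were therefore seen in set 1 and not in set 2, and the difference between the sets was not tested.

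For each gene the log2 difference was the mean of log2(value + 1) in Cxcr4 only cells minus that in Cd83 only cells, taken within each set and then averaged over the 2 sets. Positive values are higher on the Cxcr4 only side. The 5480 genes detected in at least 10% of the 105 cells were compared, and the difference had an SD of 0.49 and a median of 0.03 across them, with 53.0% of genes above 0. Because the filter pools both sides, a gene can pass it through the side where it is high alone. Such a gene had little room to differ in the other direction. A gene passed the size rule with a difference of at least 1 in either direction and the same sign in both sets. On this rule 149 genes (2.72%) were higher in Cxcr4 only cells and 111 (2.03%) in Cd83 only cells. At any size, 1535 genes (28.0%) were higher in Cxcr4 only cells in both sets and 1332 (24.3%) were lower in both. The sets gave the same sign for 52.3% of genes, and across genes, which are not independent replicates, the differences in the 2 sets had a Spearman rho of 0.08. No gene separated the sides without overlap. Like signs in the sets were thus little more common than unlike signs, and values in both sets are given for the genes described in full.

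**Figure D2:**
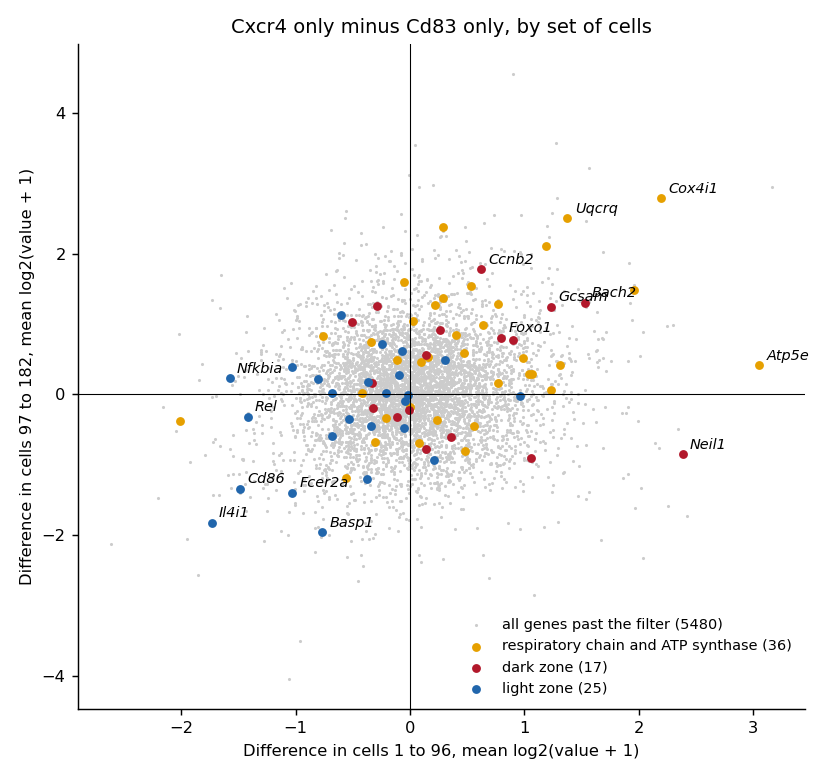
Log2 difference between Cxcr4 only and Cd83 only cells in set 1 (horizontal axis) against set 2 (vertical axis), 1 point for each of the 5480 genes compared. The cloud is nearly round, with the same sign in both sets for 52.3% of genes, and coloured points mark 17 dark zone, 25 light zone and 36 respiratory chain genes. Bach2, Gcsam and Cox4i1 lie in the upper right and Il4i1, Cd86 and Basp1 in the lower left.

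Among the genes known for the dark zone, Bach2 and Gcsam had the largest log2 differences. Of 20 dark zone genes in the table other than Cxcr4, 17 were compared, and 11 (64.7%, beside 53.0% of all genes) were above 0. In Cxcr4 only cells 7 were higher in both sets and 3 lower in both, beside 28.0% and 24.3% of all genes. The median difference over the list was 0.35, beside 0.03 over all genes. The 3 members past the size rule were Gcsam, Bach2 and Ccnb2. Each cell had 8.21 ± 2.02 detected dark zone genes on the Cxcr4 only side (mean ± SD over 52 cells) and 7.17 ± 2.17 on the Cd83 only side (53 cells), so the sides overlapped widely.

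Gcsam encodes a germinal centre adaptor protein that restrains B cell migration. It was detected in 30 of 52 Cxcr4 only cells (57.7%, interval 43.2 to 71.3) and in 13 of 53 Cd83 only cells (24.5%, interval 13.8 to 38.3). Its median value was 1.43 against 0.0615, with highest values of 637 and 650, so single cells on both sides reached the same level. The log2 difference was 1.24, with 1.23 in set 1 and 1.25 in set 2. Gcsam lies at chr16:45610440-45622867. In the cells with both RNAs it was detected in 7 of 35 and in those with neither in 12 of 42, close to the Cd83 only share.

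Bach2 encodes a transcription repressor that holds back plasma cell differentiation. It was detected in 42 Cxcr4 only cells (80.8%, interval 67.5 to 90.4) and 30 Cd83 only cells (56.6%, interval 42.3 to 70.2), with median values of 7.64 and 1.67. The log2 difference was 1.42, with 1.53 and 1.31 in the 2 sets. Foxo1, a transcription factor required for the dark zone programme, was under the size rule at 0.80, but the sets gave nearly the same value of 0.80 and 0.81, with detection in 27 against 20 cells. Akap12, a scaffold protein, was at 0.84 and Ccnb2, a mitotic cyclin, at 1.20.

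Other dark zone genes had opposite signs in the sets or small differences. Neil1, a DNA glycosylase, stood at 2.39 in set 1 and -0.85 in set 2. Mybl1, a transcription factor of proliferating B cells, stood at 1.06 and -0.91. Foxp1, a forkhead factor, had the opposite order, at -0.51 and 1.03. The mitotic kinases Cdk1 and Plk1 had differences of -0.31 and -0.12. Polh, the error-prone polymerase eta, was higher on the Cxcr4 only side in both sets, at 0.14 and 0.55, but was detected in only 6 against 7 cells. Mme, which encodes CD10, was detected in no cell of either side.

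The light zone genes lay on the other side. Of 40 in the table other than Cd83, 25 were compared, and 6 (24.0%, beside 53.0% of all genes) had a difference above 0. In Cxcr4 only cells 12 were lower in both sets and 1 was higher in both, beside 24.3% and 28.0% of all genes. The median difference over the 25 was -0.32, with -0.37 in set 1 and -0.02 in set 2. Relb, Bcl2a1b, Irf4 and Cflar were detected in under 10% of Cxcr4 only cells, so they passed the filter through the Cd83 only side. The 4 members past the size rule were Il4i1, Cd86, Basp1 and Fcer2a. Set 1 carried most of the difference in the number of these genes per cell. There, Cd83 only cells had a mean of 10.1 detected light zone genes and Cxcr4 only cells 7.57, while in set 2 the means were 7.55 and 7.18.

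Cd86 encodes a ligand by which B cells give costimulation to T cells. It was detected in 10 Cxcr4 only cells (19.2%, interval 9.6 to 32.5) and 19 Cd83 only cells (35.8%, interval 23.1 to 50.2). Its level separated the sides further than its detection, since 1.92% of Cxcr4 only and 26.4% of Cd83 only cells had a value of at least 5, and the highest values were 9.71 and 10613. The log2 difference was -1.41, with -1.48 and -1.34 in the 2 sets. Il4i1, a secreted amino acid oxidase induced in activated B cells, was detected in 16 against 26 cells, with highest values of 374 and 4926 and a log2 difference of -1.78 that was -1.73 and -1.82 in the sets. Fcer2a, the low affinity IgE receptor CD23, was detected in 24 against 32 cells with a log2 difference of -1.21. Basp1, a membrane-bound signalling protein, had medians of 10.8 and 46.4 and a log2 difference of -1.36.

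Promoters with matches to the NF-kB consensus motif are printed here because CD40 signals from T cells act on light zone cells through NF-kB, a family of transcription factors that also switch on their own inhibitors. The motif was searched by name on both strands from 250 bases before to 50 after the start of each gene in the RefSeq promoter table of GRCm38.p6. It was found in 1175 of 27025 promoters (4.35%), in 9 of the 30 light zone promoters in the table (30.0%) and in 1 of 17 dark zone promoters. The light zone list was drawn up from known markers that include targets of NF-kB, so its share is a description of the list. Among the genes past the size rule, 4 of 84 promoters on the Cd83 only side (4.76%) and 3 of 113 on the Cxcr4 only side (2.65%) had a match. A match is a description of letters and not a bound site. Each sequence below gives the 250 bases before the start, 5′ to 3′ on the minus strand on which the gene lies, with the match in capitals. The Rel sequence is chr11:23770970-23771219, that of Nfkbia chr12:55492648-55492897 and that of Basp1 chr15:25413765-25414014. Rel and Basp1 each have 2 overlapping matches in the capitals.
Rel: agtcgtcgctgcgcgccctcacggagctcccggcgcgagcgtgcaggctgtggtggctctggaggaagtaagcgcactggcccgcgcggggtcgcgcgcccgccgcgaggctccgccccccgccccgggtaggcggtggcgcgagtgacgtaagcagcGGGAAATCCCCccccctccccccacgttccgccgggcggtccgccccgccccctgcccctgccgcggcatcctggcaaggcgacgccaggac
Nfkbia: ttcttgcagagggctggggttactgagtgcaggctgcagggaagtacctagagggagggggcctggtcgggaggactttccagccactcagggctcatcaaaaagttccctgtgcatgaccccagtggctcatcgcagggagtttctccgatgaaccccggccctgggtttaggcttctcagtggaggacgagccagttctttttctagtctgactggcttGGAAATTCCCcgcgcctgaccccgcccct
Basp1: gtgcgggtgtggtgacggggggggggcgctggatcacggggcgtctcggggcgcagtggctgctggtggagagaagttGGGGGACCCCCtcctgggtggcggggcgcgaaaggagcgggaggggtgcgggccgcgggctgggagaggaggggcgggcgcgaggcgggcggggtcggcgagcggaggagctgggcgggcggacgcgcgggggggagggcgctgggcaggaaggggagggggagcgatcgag

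The 3 genes with these promoters were not alike in the data. Basp1 was lower in Cxcr4 only cells in both sets, at -0.77 and -1.96. Rel, the NF-kB subunit most used by B cells, was detected in 17 Cxcr4 only and 25 Cd83 only cells, with log2 differences of -1.42 and -0.32. Nfkbia, the classical inhibitor, was detected in 33 against 40 cells and stood at -1.58 in set 1 and 0.23 in set 2.

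The whole NF-kB list differed between the sets. Its median was -0.09, with -0.48 in set 1 and 0.18 in set 2. Of 16 members compared, 7 (43.8%, beside 53.0% of all genes) had a difference above 0. In both sets 4 were lower and 4 higher, beside 24.3% and 28.0% of all genes. Of the 4 lower, Relb and Nfkbid were detected in under 10% of Cxcr4 only cells, so they passed the filter through the Cd83 only side. The list's 1 member past the size rule was Nfkbid. This gene for an inhibitor-like nuclear partner of NF-kB was detected in 5 Cxcr4 only cells (9.6%, interval 3.2 to 21.0) and 21 Cd83 only cells (39.6%, interval 26.5 to 54.0), and in 8 of 35 cells with both RNAs and 8 of 42 with neither. Its log2 difference was -1.30, with -1.37 and -1.23 in the sets, and single cells reached 496 and 2411. Rela and Nfkbie had opposite signs in the 2 sets.

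Receptors and ligands used in contact with T cells were mostly lower on the Cxcr4 only side. Of 13 compared, 4 (30.8%, beside 53.0% of all genes) had a difference above 0, and the median was -0.34. Cd86, Cd40, Il21r and Slamf1 were also counted in the light zone list. In both sets 7 were lower and 3 higher, beside 24.3% and 28.0% of all genes. Of the 7, Icosl and Tnfsf9 were detected in under 10% of Cxcr4 only cells, so they passed the filter through the Cd83 only side. Icosl, the ligand by which B cells engage ICOS on follicular helper T cells, was detected in 4 Cxcr4 only cells (7.7%) and 16 Cd83 only cells (30.2%), with a log2 difference of -0.92. Slamf1, an adhesion receptor, had 6 against 13 detected cells and -0.79. Tnfrsf13c, the receptor for the survival factor BAFF, stood at -0.94. Slamf6, another SLAM family receptor, had the reverse order, with 18 against 8 cells and 0.81. Cd40 itself was detected in 13 cells of each side, with a log2 difference of -0.10, and Myc, which T cell help induces for a short time, in 8 and 10 cells with opposite signs in the sets.

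**Figure D3:**
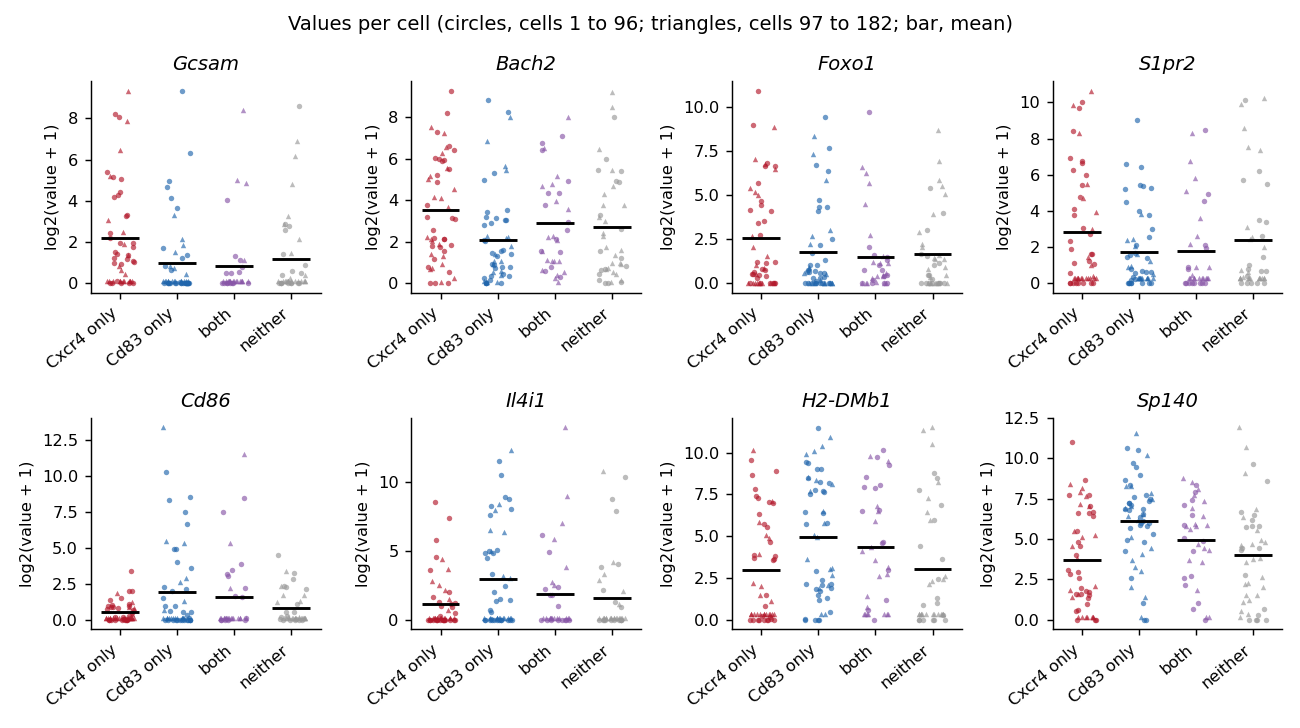
Values of 8 genes in each cell of the 2 sides and in the cells with both or neither RNA (log2(value + 1), circles for set 1, triangles for set 2, bars at the mean over cells). The sides overlap for every gene shown, and the differences show mainly as more cells well above the lowest level on one side.

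Genes of the B cell receptor and its co-receptors included some of the largest differences towards the Cd83 only side. All 22 members of the list were compared, and 10 (45.5%, beside 53.0% of all genes) had a difference above 0. In Cxcr4 only cells 10 were lower in both sets and 5 higher in both, beside 24.3% and 28.0% of all genes. Cd22, an inhibitory lectin, had medians of 15.9 in Cxcr4 only and 136 in Cd83 only cells and a log2 difference of -1.84. Ptpn6, the phosphatase SHP-1 that CD22 recruits, had medians of 27.0 and 272 and differences of -1.95 and -2.05 in the sets. Cr2, a complement receptor, was detected in 14 against 25 cells and had a difference of -1.20. Cd79a, a chain of the receptor complex itself, stood at -0.04 in set 1 and 1.30 in set 2. The median over the list was -0.09, so these members stood apart from most of the list.

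Sp140, a nuclear body protein of lymphocytes, was among the 12 genes with the largest difference towards the Cd83 only side. It was detected in 39 Cxcr4 only cells (75.0%, interval 61.1 to 86.0) and 50 Cd83 only cells (94.3%, interval 84.3 to 98.8), with medians of 6.56 and 93.3. The log2 difference was -2.37, with -2.61 and -2.13 in the sets. Sp140 is at chr1:85587491-85645040. Others in that group of 12 were Apoe, the lipid carrier apolipoprotein E, at -2.55, which rested mainly on set 2 (-4.04 against -1.06), and Srpk3 at -2.21.

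H2-DMb1, a chain of the chaperone that loads peptides onto MHC class II, was detected in 28 Cxcr4 only cells (53.8%, interval 39.5 to 67.8) and 45 Cd83 only cells (84.9%, interval 72.4 to 93.3). The medians were 1.82 and 32.8, and the log2 difference of -2.24 was -0.96 in set 1 and -3.51 in set 2. Its partner chain H2-DMa stood at -0.94, and Cd74, the invariant chain of MHC class II, at -0.99. Over the 18 MHC class II and presentation genes the median was -0.21, and 8 (44.4%, beside 53.0% of all genes) were above 0. In Cxcr4 only cells 7 were lower in both sets and 2 higher in both, beside 24.3% and 28.0% of all genes. With a limit of 5 for each side the list median was 0.06, with 9 of 18 above 0, and with a filter at 30% of cells it was 0.01, so the list as a whole had no steady direction. The class I gene H2-D1 was higher on the Cxcr4 only side at 1.20, which reversed to -0.19 with the limit of 5, and class I genes have near-identical copies between which reads may be split.

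Germinal centre B cell genes, a list of transcription factors and other proteins, were more often lower than higher in Cxcr4 only cells. Of the 24 genes on the germinal centre B cell list, 8 (33.3%, beside 53.0% of all genes) had a difference above 0. In Cxcr4 only cells 10 were lower in both sets and 4 higher in both, beside 24.3% and 28.0% of all genes. Bcl6, the factor that defines the germinal centre B cell, was detected in 26 Cxcr4 only and 40 Cd83 only cells with a log2 difference of -1.05, and Mef2b, which acts upstream of it, in 35 and 45 cells with -1.20. Pou2f2, which encodes OCT2, stood at -1.36. Its cofactor Pou2af1 had the reverse order, with 43 against 32 detected cells, medians of 32.2 and 2.45, and a log2 difference of 1.61. S1pr2, the receptor that confines B cells to the follicle centre, was detected in 29 against 23 cells with a difference of 1.20, and the surface protein Cd24a had medians of 123 and 31.4 with a difference of 1.30.

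Among cell cycle genes, those of G2 and M phase lay more often above 0 than all genes did, but not in set 1. Of 53 G2 and M phase genes compared, 37 (69.8%, beside 53.0% of all genes) had a difference above 0, with 54.7% in set 1. In both sets 20 were higher and 7 lower, beside 28.0% and 24.3% of all genes. The median was 0.15, with 0.05 in set 1 and 0.29 in set 2. Ccnb2, Cdca8 and Nusap1, which act in entry to mitosis and on the spindle, were the 3 members past the size rule, at 1.20, 1.19 and 1.11. The S phase genes were close to all genes, with 23 of 41 (56.1%) above 0 and a median of 0.11 that was 0.28 in set 1 and 0.01 in set 2. With a filter at 30% of cells, 10 of 24 S phase genes were above 0 and the median was -0.04. Prim1, the primase that starts new DNA strands, passed the size rule with 26 against 17 detected cells and a difference of 1.44. Cdk4, the G1 kinase, was on the other side, at -1.16. Btg2, an antiproliferative gene, was on the Cxcr4 only side with medians of 22.4 and 3.14 and a difference of 1.41.

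Genes for repair and processing of hypermutation had 15 of 22 above 0 (68.2%, beside 53.0% of all genes) and a median of 0.19. In both sets 10 were higher and 4 lower, beside 28.0% and 24.3% of all genes. Xrcc6, the Ku70 subunit that binds DNA ends, passed the size rule at 1.12, and Rpa1, which coats single-stranded DNA, stood at 0.99. Rev3l, the catalytic subunit of polymerase zeta, had the reverse order at -1.06.

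The respiratory chain and ATP synthase genes had the highest median of the lists with more than 2 members compared. Of 36 compared, 27 (75.0%, beside 53.0% of all genes) had a difference above 0. In Cxcr4 only cells 22 were higher in both sets and 4 lower, beside 28.0% and 24.3% of all genes. The median was 0.58, with 0.35 in set 1 and 0.50 in set 2. With a limit of 5 for each side, 21 of 36 were above 0 and the median was 0.34. Upwards, 8 members passed the size rule. Cox4i1, a subunit of cytochrome c oxidase, had medians of 458 in Cxcr4 only and 60.8 in Cd83 only cells and a log2 difference of 2.49. Atp5g3 stood at 1.72, Cox6a1 at 1.65 and Uqcrq at 1.94. The complex I subunit Ndufa2 was the member past the size rule in the other direction, at -1.19.

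Cells carried 17.35 ± 6.05 detected respiratory genes on the Cxcr4 only side and 15.49 ± 5.57 on the Cd83 only side. The cells with neither RNA had a mean of 17.57, so the number was not particular to Cxcr4 only cells. Transcript length moved with these differences. The respiratory genes had a median longest transcript of 1465.5 nt, against 3337 nt over all genes compared, and genes past the size rule towards the Cxcr4 only side had a median of 2102 nt, against 2763.5 nt towards the Cd83 only side. The 1364 genes with the shortest transcripts (96 to 2121 nt) had a median difference of 0.12, and the 1362 with the longest (4742 nt or more) -0.02. The 67 ribosomal protein genes, which are also short with a median of 1109 nt, had a median difference of 0.25, with 46 above 0. The part of transcript length in the respiratory result was not tested.

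Other genes with the largest differences towards the Cxcr4 only side belonged to no single list. Gpx1, a peroxide-reducing enzyme, had medians of 227 and 12.3 and a difference of 2.42. The microRNA gene Mir682 had the largest difference of all genes alike in both sets, at 3.06, with detection in 51 against 45 cells. Calm3, which encodes calmodulin, stood at 2.00, the ribosomal protein gene Rpl29 at 2.39, and the splicing factors Sf3b5 and Magoh at 2.08 and 2.04.

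Most compared genes of the Myc and ribosome biogenesis list and of the cell death list had differences below 0, though 1 member of each passed the size rule. Of 19 Myc and ribosome biogenesis genes compared, 5 (26.3%, beside 53.0% of all genes) had a difference above 0. In Cxcr4 only cells 13 were lower in both sets and 2 higher, beside 24.3% and 28.0% of all genes, and the median was -0.28. Of these, Polr1b passed the filter through the Cd83 only side alone and Wdr12 through the Cxcr4 only side alone. Mybbp1a and Nop56, which act in the nucleolus, stood at -1.12 and -0.94. Of 13 cell death and survival genes, 2 (15.4%, beside 53.0% of all genes) were above 0, with a median of -0.33. In both sets 10 were lower and 1 higher, beside 24.3% and 28.0% of all genes. Among the 10, Bcl2a1b and Cflar were detected in under 10% of Cxcr4 only cells, so they passed the filter through the Cd83 only side. That list holds genes of opposite action. Bid, which promotes apoptosis, was at -1.31 and the death receptor Fas at -0.92, while the survival genes Mcl1 and Bcl2a1b stood at -0.52 and -0.64. Myc itself (0.23) and the survival genes Birc3 (0.28) and Bcl2l1 (0.21) were above 0. The Bcl2a1 genes are near-identical copies and their reads may be split. Cd83 only cells had 4.23 ± 1.76 detected members of this list and Cxcr4 only cells 3.15 ± 1.75.

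**Figure D4:**
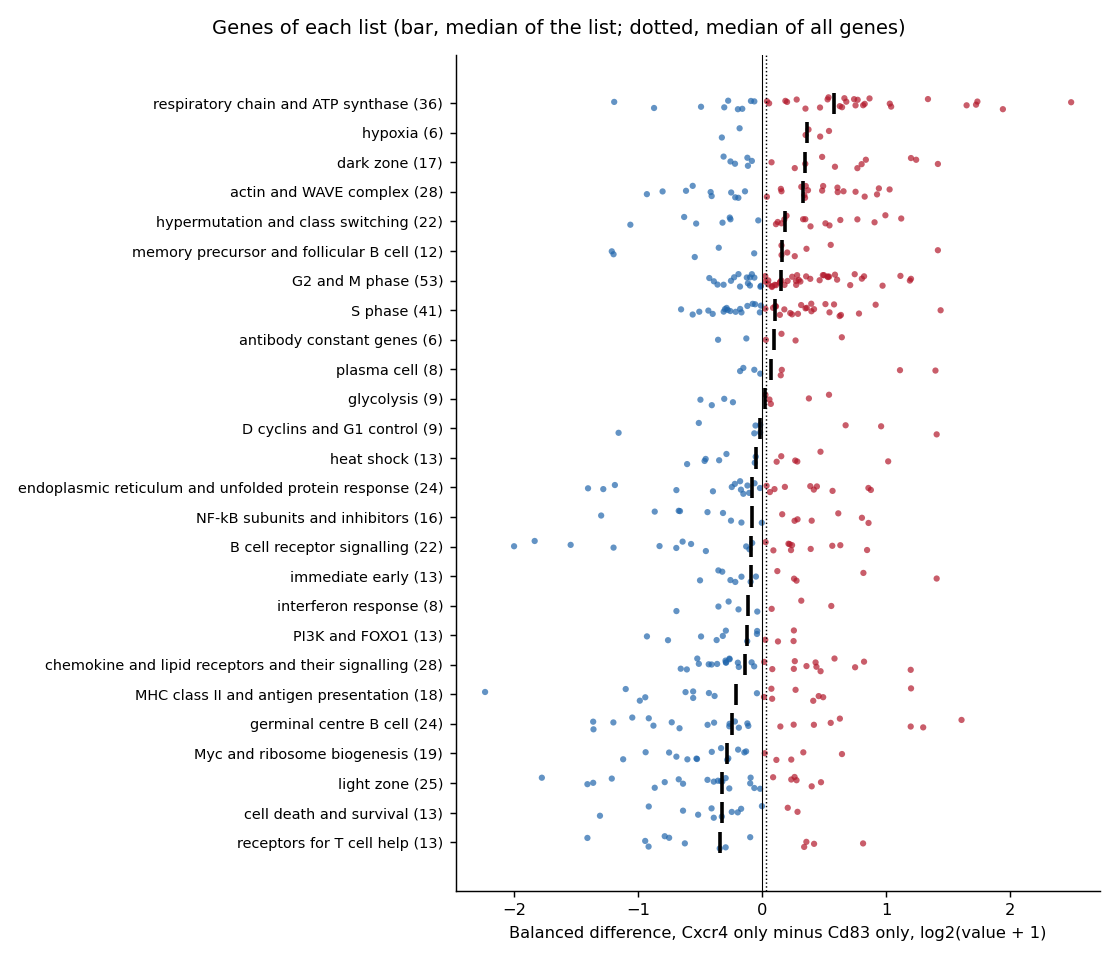
Log2 difference (Cxcr4 only minus Cd83 only) of each compared member of the gene lists, 1 point per gene, with a bar at the median of each list, a line at 0, a dotted line at the median of all genes and the number of genes compared in brackets. The respiratory list has its median at 0.58 and the dark zone list at 0.35, while the lists for T cell help, cell death, the light zone and Myc have medians from -0.34 to -0.28, and every list drawn, all with 6 or more genes compared, has members on both sides of 0.

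Of 24 endoplasmic reticulum and unfolded protein response genes compared, 3 passed the size rule towards the Cd83 only side, beside 2.03% of all genes. In the other direction 0 passed, beside 2.72% of all genes. Calr, an endoplasmic reticulum chaperone, was detected in 32 against 43 cells at a difference of -1.28, Canx, its membrane-bound relative, stood at -1.19 and the disulfide isomerase Pdia6 at -1.41. The list as a whole had 10 of 24 above 0 (41.7%, beside 53.0% of all genes) and a median of -0.08. In both sets 9 were lower and 5 higher, beside 24.3% and 28.0% of all genes. Hsp90b1 stood at 0.88 and Sec61b at 0.86, each with opposite signs in the sets, and Herpud1, at 0.44, was higher in both. Actin and WAVE complex genes had 18 of 28 above 0 (64.3%, beside 53.0% of all genes) and a median of 0.33. With a limit of 5 for each side they had 13 of 28 above 0 and a median of -0.08. Cfl1, which severs actin filaments, stood at 0.94 and Vasp, which extends them, at -0.93. The plasma cell genes had 4 of 8 above 0 (50.0%, beside 53.0% of all genes) and a median of 0.07. In both sets 3 were higher and 3 lower, beside 28.0% and 24.3% of all genes. Of the plasma cell genes, Slamf7 and Sec11c were past the size rule towards the Cxcr4 only side, at 1.40 and 1.11. Xbp1, which drives secretion, was at -0.18. The chemokine and lipid receptor list had 12 of 28 above 0 (42.9%, beside 53.0% of all genes). Cxcr5, which draws cells to the light zone, stood at 0.28 in set 1 and -1.59 in set 2.

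The remaining lists were small or near the median of all genes, of which 53.0% were above 0. Above 0 were 4 of 13 PI3K and FOXO1 genes with a median of -0.12, 3 of 9 D cyclin and G1 genes with -0.02, and 5 of 9 glycolysis genes with 0.03. The heat shock list had 6 of 13 above 0 and a median of -0.05, the immediate early list 5 of 13 and -0.09, and the interferon list 3 of 8 and -0.12. Memory precursor and follicular genes had 7 of 12 above 0 and a median of 0.16, with Bach2 against Fcer2a and Cr2 at its ends. Hypoxia genes had 4 of 6 above 0 and a median of 0.36, among them the glucose transporter Slc2a1 at 0.54, with Hif1a itself at -0.33.

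Ighm cells and switched cells were found on both sides. Ighm held over 50% of the heavy chain constant signal in 34 of 50 Cxcr4 only cells with such signal (68.0%, interval 53.3 to 80.5) and in 36 of 48 Cd83 only cells (75.0%, interval 60.4 to 86.4). A switched class did so in 14 (28.0%, interval 16.2 to 42.5) and 11 (22.9%, interval 12.0 to 37.3) cells. Ighv1-72, the variable gene typical of the NP response, was detected in 15 of 52 (28.8%, interval 17.1 to 43.1) and 11 of 53 cells (20.8%, interval 10.8 to 34.1). The intervals cover counting error over cells only, and whether the sides differ in these shares was not tested.

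Genes of other cell types were checked because depletion and capture can leave or pair foreign cells. At least 2 myeloid or dendritic markers were detected in 12 Cxcr4 only and 8 Cd83 only cells, and at least 2 T cell markers other than Lck in 1 and 0. The summed value of the myeloid list ranged from 0.24 to 3612 with a median of 13.4 in Cxcr4 only cells, and from 0.24 to 4554 with a median of 0.52 in Cd83 only cells. Of its 15 genes in the table, 2 were compared, with a median difference of -0.38 in set 1 and 1.58 in set 2. Of the 11 T cell genes, Lck alone was compared, with 22 against 35 detected cells and a difference of -1.17 that was -2.16 in set 1 and -0.17 in set 2. None of 5 NK cell and 4 erythroid genes and 1 of 8 stromal genes reached the filter. The part of such RNA in the differences was not tested, beyond repeating the comparison without the cells that had at least 2 of either kind of marker.

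The cells left out of the comparison did not sit together with either side. Cells with both RNAs had a mean of 7.23 detected dark zone and 8.49 light zone genes, and cells with neither had 7.43 and 7.71. Cells with both stayed near the Cxcr4 only share for Bach2, with 27 of 35 detected, and near the Cd83 only share for Cd86, with 12 of 35, and for Gcsam, with 7 of 35. For Nfkbid, with 8 of 35, they lay between the sides.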

How the data were processed

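RNA was measured in 182 single cells with 1 library each. Per the labels, the authors deposited a table of normalized, non-log values for genes in rows and cells in columns, used here as a signal. TopHat2 2.0, Cuffdiff, Cufflinks 2.2 and mm10 are named in the submitters' processing notes. How the values were normalized, from which unit and with which annotation is not given in the sources used here. Read depth is unknown. The table had 17035 rows for 17034 symbols, and 1 duplicated row was dropped. No column was left unused.

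Values were compared as log2(value + 1), within each column set and averaged over both, for genes detected (value of at least 1) in at least 10% of the 105 cells. Cells are not replicates, so no test was run and the size rule stands in its place. The calculation of the difference was checked by adding shifts of known size to genes of the Cxcr4 only side in the deposited values and reading them back. The other steps were not checked in this way. Python 3.11.15, numpy 2.4.6, pandas 2.3.3, scipy 1.17.1 and matplotlib 3.10.9 were used. Gene positions and promoters are from RefSeq GRCm38.p6, and lengths are of the longest GENCODE transcript.

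The named genes were Cxcr4, Cd83, all dark and light zone members, the 12 highest and 12 lowest differences with the same sign in both sets, up to 4 of each other list by size, up to 3 for other cell types, and the defining B cell genes. A few further list members (among them Tnfrsf13c, Slamf6, Bcl6, Mef2b, H2-DMa and Rpa1) were chosen after their values were seen. The members and the 31 lists were chosen with earlier results of these data known. The ribosomal protein genes and the length values were added after seeing the data, as were the alternatives for the respiratory, Myc and cell death lists. Alternatives covered the pseudocount, the filter, the limit of each side, the sets, depth strata and single or foreign-marker cells. Some genes under the rule are not reported here.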

Additional observations from a re-analysis of the deposited data

How the results depend on the processing

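Of the 55 named genes past the size rule, 54 kept their sign under every alternative run, and H2-D1 reversed to -0.19 with a limit of 5 for each side. These 55 were picked by size in the same data, and the rule itself fixes the sign within each set. Of all 179 named genes, which include the 55, 156 kept their sign with the limit of 5. The number was 156 with sides taken above the lowest value, 154 in set 1 alone and 162 in set 2 alone. Counts past the size rule moved more. The 149 genes higher in Cxcr4 only cells became 427 with a pseudocount of 0.1, 28 with 10, 274 in set 1 alone, 428 in set 2 alone, 232 with sides taken above the lowest value and 271 with the limit of 5. The 111 genes higher in Cd83 only cells became 271, 14, 374 (set 2 alone) and 196 (limit of 5). Without cells with foreign markers the counts were 212 and 131, and within strata of the number of genes above their lowest value 133 and 109. The limit of 5 left 32 Cxcr4 only and 39 Cd83 only cells, and 79 and 64 of the main genes recurred under it. The share of G2 and M genes above 0, 69.8%, was 54.7% in set 1 and 85.2% without cells with foreign markers. The respiratory share of 75.0% was 88.9% with sides above the lowest value and 58.3% (21 of 36) with the limit of 5. The cell death share of 15.4% was 0% with a filter at 30% of cells, which left 4 genes, and 33.3% (5 of 15) with sides above the lowest value. Of 16 NF-kB genes, 5 were above 0 in set 1 and 11 in set 2, and of 25 light zone genes 3 and 11. Causes of these moves were not tested. Unknown read depth and 1 biological sample limit every value.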
